A study of Mus musculus with 27 samples.

Results

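P300 sites in the Kupffer cells of mice on a NASH diet were set against P300 sites in the Kupffer cells of mice on a control diet. P300 (gene Ep300) is a histone acetyltransferase and coactivator, and its sites were mapped by ChIP-seq, the sequencing of DNA that comes down with an antibody to the protein. Each diet had 2 P300 libraries and 1 deposited site list. All 52628 sites of the NASH list and all 25219 sites of the control list were taken, 77847 of the 228956 sites that the series holds for P300, LXR and ATF3, and the P300 libraries are 4 of its 27 samples. A site that overlapped a site of the other list by at least 1 bp was called shared, and the others were called NASH-only or control-only. Both groups were C57BL/6J mice whose Kupffer cells, macrophages that reside in liver sinusoids, had been sorted as high in F4/80 and positive for Tim4. The NASH mice ate a diet that models NASH, a fatty liver disease with inflammation, and the other mice ate a control diet. The livers of both were digested in the presence of flavopiridol, a transcription inhibitor. The lists carry no value for a single library, so the P300 results below are descriptions with no test, and nothing in the labels says that libraries of 1 diet came from separate animals. The header of the NASH list carries a name other than that of the accessible regions described as 20 weeks on the diet, so the time on the diet may differ between them.

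P300 does not read DNA letters itself. It is brought to enhancers and promoters by transcription factors, acetylates histones there, including lysine 27 of histone H3, and H3K27ac is read as a mark of active regulatory DNA. In Kupffer cells, LXR, a nuclear receptor that binds oxysterols, is known as a factor of the resident identity, while AP-1 and ATF factors such as ATF3 are known for stress and inflammatory responses. Tim4, the product of Timd4, was used to sort the cells of both diets, so its own sites describe cells that had passed that gate.

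The promoters of 7 genes show the 3 patterns side by side. Itgax (CD11c), Trem2 (a lipid-sensing receptor) and Cd63 (a tetraspanin of endosomes and lysosomes) held a NASH-only site, Marco and Cd163 (scavenger receptors) held a control-only site, and Timd4 (a receptor for phosphatidylserine) and Il6 (a cytokine) held a shared site. The Il6 promoter held a NASH-only site as well. Each sequence below is 300 bases from RefSeq, GRCm38.p6, given 5′ to 3′ on the strand of the gene, with 250 bases before the annotated start and 50 after it. Capitals mark matches on either strand to AP-1 (TGANTCA), C/EBP (TTGCNNAA) and the nuclear receptor half-site (AGGTCA). Itgax lies at chr7:128129300-128129599 on the plus strand, Trem2 at chr17:48346151-48346450 on the plus strand, and Cd63 at chr10:128909095-128909394 on the plus strand. Marco lies at chr1:120504975-120505274 on the minus strand and Cd163 at chr6:124304401-124304700 on the plus strand. Timd4 lies at chr11:46810549-46810848 and Il6 at chr5:30012864-30013163, both on the plus strand.
Itgax: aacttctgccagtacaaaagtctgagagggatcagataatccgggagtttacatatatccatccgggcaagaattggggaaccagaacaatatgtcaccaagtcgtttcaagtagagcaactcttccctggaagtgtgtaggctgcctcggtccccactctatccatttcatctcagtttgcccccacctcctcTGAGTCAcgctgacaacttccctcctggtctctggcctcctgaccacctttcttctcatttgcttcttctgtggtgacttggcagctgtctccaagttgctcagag
Trem2: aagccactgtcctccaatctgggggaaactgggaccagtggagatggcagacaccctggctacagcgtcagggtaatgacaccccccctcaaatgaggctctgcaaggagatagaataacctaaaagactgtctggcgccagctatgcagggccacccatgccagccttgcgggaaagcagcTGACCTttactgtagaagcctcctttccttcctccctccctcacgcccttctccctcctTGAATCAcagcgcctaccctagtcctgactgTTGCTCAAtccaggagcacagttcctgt
Cd63: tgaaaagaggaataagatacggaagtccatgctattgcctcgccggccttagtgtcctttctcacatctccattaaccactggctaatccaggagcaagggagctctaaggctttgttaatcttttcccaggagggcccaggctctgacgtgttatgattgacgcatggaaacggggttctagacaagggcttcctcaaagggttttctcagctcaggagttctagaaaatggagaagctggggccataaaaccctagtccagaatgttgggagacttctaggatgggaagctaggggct
Marco: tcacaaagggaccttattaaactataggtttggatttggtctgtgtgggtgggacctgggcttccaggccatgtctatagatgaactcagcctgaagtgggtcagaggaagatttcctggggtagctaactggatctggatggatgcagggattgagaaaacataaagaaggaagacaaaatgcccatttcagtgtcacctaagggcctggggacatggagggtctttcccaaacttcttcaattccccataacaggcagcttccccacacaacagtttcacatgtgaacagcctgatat
Cd163: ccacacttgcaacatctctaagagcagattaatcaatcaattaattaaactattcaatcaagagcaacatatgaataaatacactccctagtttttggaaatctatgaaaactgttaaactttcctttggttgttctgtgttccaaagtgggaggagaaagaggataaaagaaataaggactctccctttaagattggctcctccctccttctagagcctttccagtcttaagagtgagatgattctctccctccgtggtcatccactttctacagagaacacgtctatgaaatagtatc
Timd4: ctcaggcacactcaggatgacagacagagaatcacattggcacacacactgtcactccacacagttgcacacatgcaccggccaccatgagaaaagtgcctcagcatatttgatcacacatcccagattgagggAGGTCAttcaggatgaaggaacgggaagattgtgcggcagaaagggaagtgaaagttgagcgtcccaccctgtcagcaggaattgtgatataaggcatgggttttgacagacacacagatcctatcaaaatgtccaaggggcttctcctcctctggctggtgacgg
Il6: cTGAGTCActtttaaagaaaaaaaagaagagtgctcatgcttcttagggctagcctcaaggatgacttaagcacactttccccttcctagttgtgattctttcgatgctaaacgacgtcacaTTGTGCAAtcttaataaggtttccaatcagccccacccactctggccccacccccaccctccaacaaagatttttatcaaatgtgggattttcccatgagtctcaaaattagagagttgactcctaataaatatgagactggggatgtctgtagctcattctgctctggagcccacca
The NASH list gave the Itgax promoter site an enrichment score of 64, the Trem2 site 101 and the Cd63 site 34, where the score is the authors' own value for a site, with no unit, read here only within a list. In the control list the Marco site had a score of 32 and the Cd163 site 36. The shared promoter site of Timd4 had a score of 44 in the NASH list and 56 in the control list, and a shared site at the Il6 start had 54 in the NASH list and 38 in the control list. The NASH-only site of the Il6 promoter, from −330 to −62, had a score of 50. The AP-1 match of Itgax begins at −56 from the start, that of Trem2 at −9 and that of Il6 at −249. Trem2 also has a C/EBP match at 22 and a nuclear receptor half-site at −68, Il6 a C/EBP match at −128 and Timd4 a half-site at −116. Both Il6 matches lie in the NASH-only site of its promoter and not in the shared site. The Marco, Cd163 and Cd63 windows hold none of these 3 words. A match is a description of letters and not a bound site.

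More than 1 in 2 sites of the NASH list had no partner in the control list, while most sites of the control list had one in the NASH list. The NASH list held 29852 NASH-only sites (56.72%, exact 95% binomial interval 56.3 to 57.15) and 22776 shared sites (43.28%). The control list held 2549 control-only sites (10.11%, interval 9.74 to 10.49) and 22670 shared sites (89.89%). These intervals, like all binomial intervals here, cover the counting of sites only and not the spread between libraries. With the NASH list cut to its 25219 highest scores, the same length as the control list, 7046 sites were NASH-only and 7038 were control-only. Lists of equal length leave nearly equal remainders by construction. The depth of the P300 libraries is not given in the lists, and its part in the length of the lists was not tested.

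NASH-only sites lay low in their list. Their median score was 35 (quartiles 28 and 47), against 72 (quartiles 52 and 101) for shared sites of the NASH list. Control-only sites had a median score of 24 (quartiles 21 and 30), against 31 (quartiles 25 and 41) for shared sites of the control list. In the NASH list ordered by score, 94.2% of the highest 5263 sites were shared, against 5.17% of the lowest 5262. In the control list, 97.2% of the highest 2522 sites and 72.7% of the lowest 2521 were shared. The reproducibility (IDR) score reached its ceiling of 1000 at 52.43% of NASH-only sites and 93.23% of shared sites in the NASH list, and at 23.26% of control-only sites and 54.58% of shared sites in the control list. Median widths were 242 bp for NASH-only and 234 bp for shared sites in the NASH list, and 267 bp for control-only and 249 bp for shared sites in the control list.

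**Figure D1:**
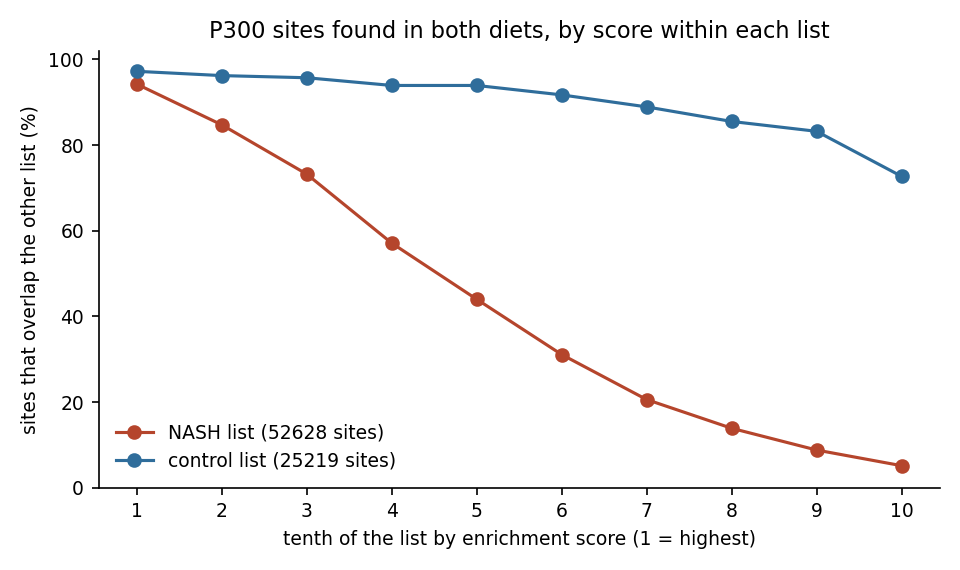
Share of P300 sites that overlap the other diet's list (vertical axis, percent), by the authors' enrichment score (horizontal axis, 10 equal parts of each list, 1 is the highest), for the NASH list (52628 sites) and the control list (25219 sites). The NASH line falls to 5.17% in its lowest part, while the control line stays at 72.7% or higher.

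Control-only sites often lay beside a site of the other list. A NASH site lay within 500 bp of 42.8% of the control-only sites, at a median distance of 831 bp. A control site lay within 500 bp of 12.7% of the NASH-only sites, at a median distance of 7252 bp. The lists searched differ in length, with 52628 NASH and 25219 control sites, so neighbours are easier to find for control-only sites. Counting neighbours within 500 bp as shared left 1458 control-only sites. The paired shared sites were close copies of each other in place. The median overlap was 94.9% of the shorter site over the 22297 pairs in which each site had a single partner. Across those pairs the scores of both lists had a Spearman rho of 0.702, which is across sites of the same lists and is no test.

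NASH-only sites were farther from gene starts than the other classes. Within 1 kb of a protein-coding start lay 5186 NASH-only sites (17.38% of those with a start on their chromosome), 669 control-only sites (26.55%) and 7267 shared sites of the NASH list (32.02%). The median distance to the nearest start was 14360 bp for NASH-only sites, 7254 bp for control-only sites and 7458 bp for shared sites of the NASH list. Sites more than 50 kb away made up 21.73% of NASH-only, 18.41% of control-only and 16.97% of shared sites of the NASH list. About equal shares lay inside a gene's span, at 60.2% of NASH-only, 59.88% of control-only and 59.54% of shared sites of the NASH list. Of the windows that hold NASH-only sites, HOMER's annotation placed 43.3% in introns, 32.6% between genes and 18.3% at promoters.

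Open chromatin was found under most shared sites and under fewer of the others. The series' 70300 accessible windows, merged from ATAC-seq, a transposase assay of open DNA, held 67.28% of NASH-only sites, 57.98% of control-only sites and 92.06% of shared sites of the NASH list. Accessible in the list named for 20 weeks on the NASH diet and not in the control list were 7.29% of NASH-only sites, 1.45% of control-only sites and 0.957% of shared sites of the NASH list. Accessible in the control list and not in the 20-week list were 13.54% of NASH-only sites, 21.58% of control-only sites and 10.27% of shared sites of the NASH list. Of control-only sites, 36.41% lay in an accessible window of the 20-week list and 56.53% in one of the control list.

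LXR sites covered most P300 sites that both diets shared, and ATF3 sites of the NASH list covered more P300 sites than those of the control list. A site of the NASH LXR list overlapped 63.9% of NASH-only P300 sites (exact 95% binomial interval 63.4 to 64.5), 36.4% of control-only sites (34.5 to 38.3) and 88.5% of shared sites of the NASH list (88.1 to 88.9), with 57.6% of all accessible windows as the background. The control LXR list overlapped 48.3% of NASH-only sites, 44.6% of control-only sites and 87.7% of shared sites, with 52.7% of all windows. The NASH ATF3 list overlapped 45.3% of NASH-only sites (44.7 to 45.9), 17.0% of control-only sites (15.5 to 18.5) and 66.4% of shared sites (65.8 to 67.0), with 42.0% of all windows. The control ATF3 list overlapped 13.3% of NASH-only, 12.6% of control-only and 47.1% of shared sites, with 21.4% of all windows. The ATF3 lists themselves differ in length, with 38828 sites in NASH and 16109 in control, and the LXR lists held 51709 and 44463. The background windows are all accessible, while 67.28% of NASH-only, 57.98% of control-only and 92.06% of shared sites lay in such a window. The part of accessibility in these shares was not tested.

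LXR sites listed in 1 diet alone followed the class of the P300 site. LXR sites of the NASH list alone covered 23.1% of NASH-only, 9.06% of control-only and 6.12% of shared P300 sites, with 12.5% of all accessible windows. LXR sites of the control list alone covered 7.47% of NASH-only, 17.3% of control-only and 5.29% of shared sites, with 7.53% of all windows. ATF3 sites of the NASH list alone covered 34.8% of NASH-only, 11.3% of control-only and 25.2% of shared sites, with 24.2% of all windows. Neither factor in either diet was listed at 21.7% of NASH-only, 42.4% of control-only and 4.91% of shared sites, and at 29.6% of all windows. The NASH-only share for LXR in control alone and the shared share for ATF3 in NASH alone were thus near those of all windows. Overlap also followed the score, since 97.2% of the highest 5263 and 33.6% of the lowest 5262 sites of the NASH P300 list held a NASH LXR site, so the class differences cannot be told apart from the score differences between classes.

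**Figure D2:**
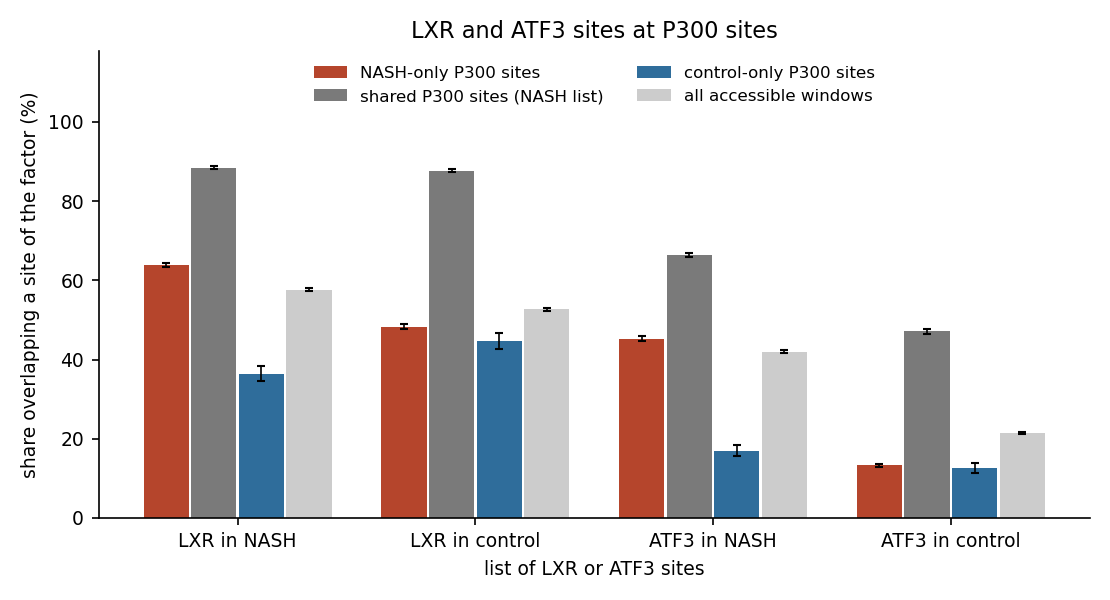
Share of P300 sites, by class, and of all accessible windows that overlap a site of each LXR or ATF3 list (vertical axis, percent; error bars, exact 95% binomial intervals of counting). Shared P300 sites are highest for all 4 lists, and ATF3 in NASH covers 45.3% of NASH-only sites and 17.0% of control-only sites.

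H3K27ac was measured in the same sorted cells with 2 libraries per diet and gives values per library, so here the P300 classes can be read against a test. The values are tags in an accessible window scaled by the authors to 10000000 tags per library, from 18749728 and 19231109 tags in the NASH libraries and 9468035 and 22615879 in the control libraries. The test was limma on log2(value + 1) over 35947 windows that passed a filter on low values, and a window was called where its Benjamini-Hochberg adjusted p was below 0.05 and its log2 change, on the authors' scaling, was 1 or more in size. On that scaling the median window changed by −0.26, so log2 changes below are given relative to that median, while the calls keep the authors' scaling. The same windows scaled by TMM, which sets the median change to 0, are given beside the main counts. Of the windows that hold P300 sites, 9693 of 20162 with NASH-only sites, 810 of 1373 with control-only sites and 15641 of 21574 with shared sites passed the filter. A window could pass on the 2 libraries of 1 diet, so a window low in 1 diet was tested only where the other was high enough. In bulk cells a lower signal per cell and fewer cells of a kind cannot be told apart.

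H3K27ac was raised in NASH more often at NASH-only P300 sites than in the background, and lowered more often at control-only sites. Windows with NASH-only sites were raised in 389 of 9693 tested (4.01%) and lowered in 328 (3.38%), beside 2.00% raised and 4.59% lowered over all windows. Windows with control-only sites were raised in 2 of 810 (0.247%) and lowered in 81 (10.0%). Windows with shared sites were raised in 69 of 15641 (0.441%) and lowered in 480 (3.07%), and windows with no P300 site were raised in 259 of 9754 (2.66%) and lowered in 761 (7.8%). With TMM scaling, where 3.31% of all windows were raised and 2.51% lowered, NASH-only windows had 569 raised and 144 lowered, control-only windows 14 and 61, shared windows 200 and 230, and windows without a site 406 and 467. The calls rested on both NASH libraries, since NASH-only windows had 105 raised calls without NASH library 1 and 113 without NASH library 2, shared windows 8 and 4, and windows without a site 86 and 84. Control-only windows had 42 lowered calls without NASH library 2, NASH-only windows 133 and 65 lowered without NASH library 1 and 2, and shared windows 193 and 103. With no filter on low windows, limma called 0 windows in every class, while 2335 raised and 5271 lowered windows passed an unadjusted p of 0.05 with a log2 change of 1 or more in size. With the filter, edgeR called 1357 raised and 1130 lowered.

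Counted without a test, the 2 NASH libraries were both above the 2 control libraries in 20.2% of NASH-only windows, 11% of control-only windows and 12.0% of shared windows, beside 15.0% of all windows. Both were below in 34.1% of NASH-only windows, 45.1% of control-only windows and 37.7% of shared windows, beside 38.1% of all. The median relative log2 change was 0.07 in NASH-only windows, −0.08 in control-only windows and −0.01 in shared windows, so the middle of each class moved little and the classes differed in their tails. Of all 720 raised windows, 54.0% held NASH-only sites, 0.278% held control-only sites, 9.58% held shared sites and 36.0% held no P300 site. Of all 1651 lowered windows, 19.9% held NASH-only sites, 4.91% held control-only sites, 29.1% held shared sites and 46.1% held no P300 site. Among all 35947 tested windows these shares were 27% for NASH-only sites, 2.25% for control-only sites, 43.5% for shared sites and 27.1% for no P300 site.

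The shares were larger away from gene starts. Farther than 1 kb from a start, 327 of 6245 NASH-only windows (5.24%) were raised, against 581 of 20695 windows of all kinds (2.81%). Within 1 kb, 62 of 3447 NASH-only windows (1.80%) were raised, against 139 of 15245 of all kinds (0.912%). Windows with no P300 site were raised in 195 of 4789 distal ones (4.07%) and 64 of 4962 near a start (1.29%). Of control-only windows, 68 of 443 distal ones (15.3%) and 13 of 367 near a start (3.54%) were lowered, against 1203 distal (5.81%) and 448 near (2.94%) over all windows. Among windows with no P300 site, 544 distal (11.4%) and 217 near a start (4.37%) were lowered, the latter a larger share than in control-only windows. The highest-scoring of 5 equal parts of the NASH-only windows (scores 56 to 347) had 139 raised and 44 lowered of 2542 tested (5.47% and 1.73%), and the lowest part (scores 20 to 29) had 43 raised and 89 lowered of 1465 (2.94% and 6.08%).

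Raised shares differed between subsets of NASH-only windows. NASH-only P300 windows whose LXR and ATF3 sites were both in the NASH lists alone were raised in 160 of 855 tested (18.7%) and lowered in 6 (0.702%). Those with LXR in both diets and ATF3 in NASH alone were raised in 53 of 1945 (2.72%), and those with LXR in control alone in 11 of 860 (1.28%). Whatever the control lists held, windows with both LXR and ATF3 in NASH were raised in 241 of 4082 (5.9%). Those with ATF3 but no LXR in NASH were raised in 52 of 716 (7.26%), those with LXR but no ATF3 in 47 of 2969 (1.58%), and those with neither in 49 of 1926 (2.54%). NASH-only windows that were accessible in the 20-week list alone were raised in 131 of 571 (22.9%), and those accessible in the control list alone were lowered in 134 of 1882 (7.12%) and raised in 23 (1.22%). Control-only windows accessible in the control list alone were lowered in 47 of 240 (19.6%), against 32 of 535 (5.98%) for those in both ATAC lists. Control-only windows with a control LXR site were lowered in 58 of 471 (12.3%), and those without one in 23 of 339 (6.78%). Many windows of these subsets failed the low-value filter. It passed 571 of 2246 NASH-only windows of the 20-week list alone and 855 of 2624 with LXR and ATF3 in NASH alone. Of control-only windows of the control ATAC list alone, 240 of 563 passed. Windows low in a single diet passed only where the other was high enough, and the part of this in the shares was not tested.

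**Figure D3:**
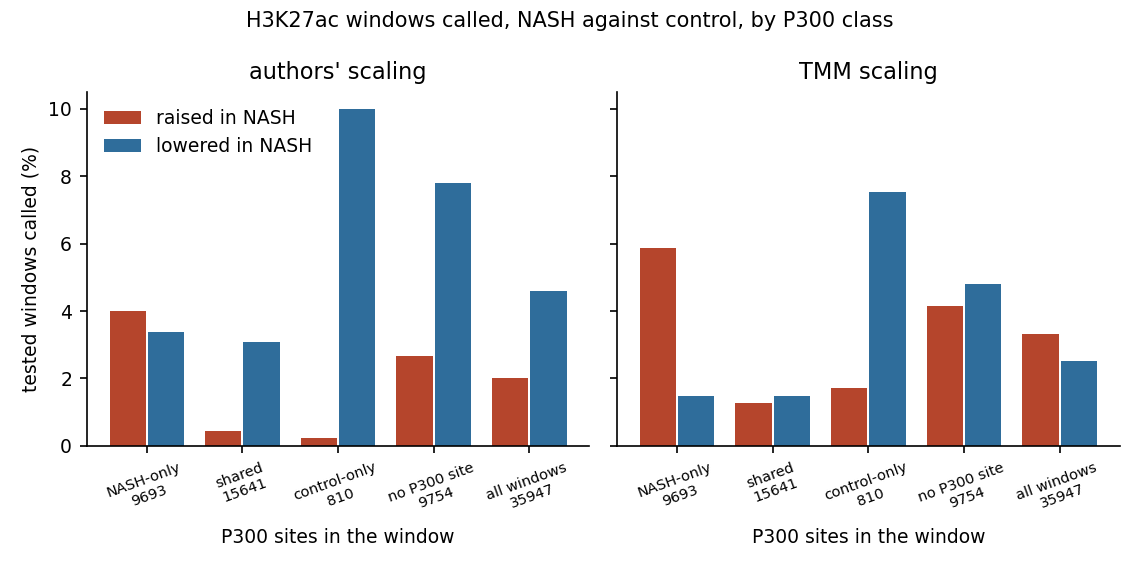
Share of tested H3K27ac windows called raised or lowered in NASH (vertical axis, percent), by the P300 sites that the window holds (numbers under the labels, tested windows), on the authors' scaling (left) and with TMM (right). NASH-only windows have the highest raised share and control-only windows the highest lowered share under both scalings.

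Some genes known from lipid- and scar-associated macrophages, the lipid-loaded state described in fatty and fibrotic liver, carried NASH-only sites with raised H3K27ac. Over a list of 26 such genes, 14 of 56 tested windows with NASH-only sites were raised. The highest NASH-only scores of the list were near Ctsb (164), Capg (130) and Cd9 (124), and those windows were not called. Gpnmb, a transmembrane glycoprotein of lipid-loaded macrophages, had 12 NASH-only sites and no site in the control list, with scores between 25 and 115. The window at its site chr6:49037054-49037317, centred 667 bp into the gene, had 41.1 and 39.0 normalised tags in NASH and 2.11 and 1.33 in control. Every NASH value lay above every control value, and the relative log2 change was 4.19 ± 0.44 (SE, n = 2 each; limma adjusted p = 9.74e-05). Of the 6 tested windows at its sites, 5 were raised, and the window at −540 bp had 25.1 and 16.6 tags in NASH and 0 and 0.44 in control (limma adjusted p = 0.000487). The calls at −24059 and −23300 bp were lost when NASH library 1 (adjusted p = 0.144 and 0.244), NASH library 2 (0.118 and 0.139) or control library 2 (0.10 and 0.0642) was left out, and HOMER's annotation gives 4930563H07Rik as the nearest gene of both windows. The window at the Gpnmb start itself held no P300 site within the 300 promoter bases, yet had 30.9 and 36.4 tags in NASH and 1.06 and 0 in control (limma adjusted p = 0.000155).

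Itgax, whose product CD11c is a surface integrin, had 6 NASH-only sites and 1 shared site. At its promoter site the window had 44.8 and 33.3 tags in NASH and 6.34 and 3.54 in control, with no overlap between diets and a relative log2 change of 3.04 ± 0.40 (SE, n = 2 each; limma adjusted p = 0.000615). Cd63 had 4 NASH-only sites and none in the control list. The window at chr10:128909661-128909967 had 34.1 and 20.8 tags in NASH and 2.11 and 0.88 in control, a relative log2 change of 3.78 ± 0.51 (SE, n = 2 each; limma adjusted p = 0.000627). The window at the printed Cd63 promoter had 15.5 and 13 tags in NASH and 2.11 and 0.44 in control (limma adjusted p = 0.00624), a call lost without NASH library 1 (0.0590) or 2 (0.0517). Cd9, another tetraspanin, had 12 NASH-only sites and 1 shared site, and 1 of its 6 tested windows was raised, with 10.7 and 14.6 tags in NASH and 3.17 and 2.21 in control (limma adjusted p = 0.0330; 0.105 and 0.267 without NASH library 1 and 2). Trem2 had 4 NASH-only sites with scores up to 104 and no control site, but its promoter window, at 10.1 and 6.76 tags in NASH and 5.28 and 4.86 in control, was not called (limma adjusted p = 0.489). Spp1, a secreted phosphoprotein, had no P300 site in either list.

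Transcription factor genes also carried NASH-only sites. Atf3 had 12 NASH-only, 7 shared and 1 control-only site, and its NASH-only scores reached 184. The window at −58467 bp from the Atf3 start had 42.7 and 30.7 tags in NASH and 2.11 and 2.21 in control, the diets apart by a relative log2 change of 3.82 ± 0.44 (SE, n = 2 each; limma adjusted p = 0.000201). HOMER's annotation names the predicted gene D730003I15Rik as the nearest gene of that window. Runx1, a haematopoietic factor, had 30 NASH-only, 15 shared and 1 control-only site, and 1 of 19 tested windows was raised, at a site 564 bp from the start, at 35.7 and 21.3 tags in NASH and 9.51 and 10.6 in control (limma adjusted p = 0.0315; 0.310 without NASH library 1 and 0.0845 without NASH library 2). Its relative Runx2 had 7 NASH-only sites and no other, with 6.4 and 9.88 tags in NASH and 1.06 and 0 in control in its tested window (limma adjusted p = 0.0199; 0.142 without NASH library 2). Cebpb, Fos and Jun had 16, 6 and 15 NASH-only sites beside 27, 19 and 11 shared sites, and none of their tested windows at P300 sites was called.

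NF-κB genes had windows called in both directions. Traf1, a signalling adaptor of TNF receptors, had 7 NASH-only sites and no site in the control list. The window at chr2:34963463-34963692, centred at −1805 bp from its start, had 99.2 and 73.8 tags in NASH and 4.22 and 9.73 in control. The diets did not overlap, and the relative log2 change of 3.79 ± 0.36 (SE, n = 2 each) had the smallest adjusted p of the raised NASH-only windows (limma, 4.32e-05). Neither LXR nor ATF3 was listed at that site. Tnfaip3, the gene of A20, which damps NF-κB signalling, had 23 NASH-only and 11 shared sites, and the window at 15416 bp had 20.8 and 17.2 tags in NASH and 3.17 and 1.33 in control (limma adjusted p = 0.00407; 0.0607 without NASH library 1). At the Il6 start, H3K27ac went the other way, with 8.0 and 6.76 tags in NASH and 27.5 and 30.5 in control at the shared site, a relative log2 change of −1.58 ± 0.37 (SE, n = 2 each; limma adjusted p = 0.00624; 0.0602 without NASH library 2). The neighbouring Il6 window at −196 bp, under a NASH-only site, had 0.53 and 3.64 tags in NASH and 15.8 and 14.2 in control (limma adjusted p = 0.0119; 0.105 without NASH library 1).

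LXR target genes had many NASH-only sites and few called H3K27ac windows. Abca1, the cholesterol efflux transporter, had 53 NASH-only, 30 shared and 2 control-only sites, and 14 of its NASH-only sites overlapped a NASH LXR site. Of 34 sites in tested windows, 2 were in raised ones, both far from the start. The call at −80292 bp (limma adjusted p = 0.0497) was lost without control library 1 (0.191), NASH library 1 (0.168) or NASH library 2 (0.127), and the window at −104909 bp had 9.07 and 10.4 tags in NASH and 1.06 and 1.33 in control (limma adjusted p = 0.0209; 0.0827 without NASH library 1 and 0.144 without NASH library 2). HOMER's annotation gives 4930522O17Rik as the nearest gene of the first of these windows, and AI427809, with a start 731 bp away, as that of the second. Abcg1, a partner in cholesterol efflux, had 24 NASH-only and 4 shared sites, and none of its 15 sites in tested windows was called. Its promoter site, shared with scores of 97 in the NASH list and 27 in the control list, had 21.9 and 13 tags in NASH and 27.5 and 19.9 in control. Nr1h3, which encodes LXRα, had 3 NASH-only, 4 shared and 1 control-only site, and none of its tested windows was called.

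**Figure D4:**
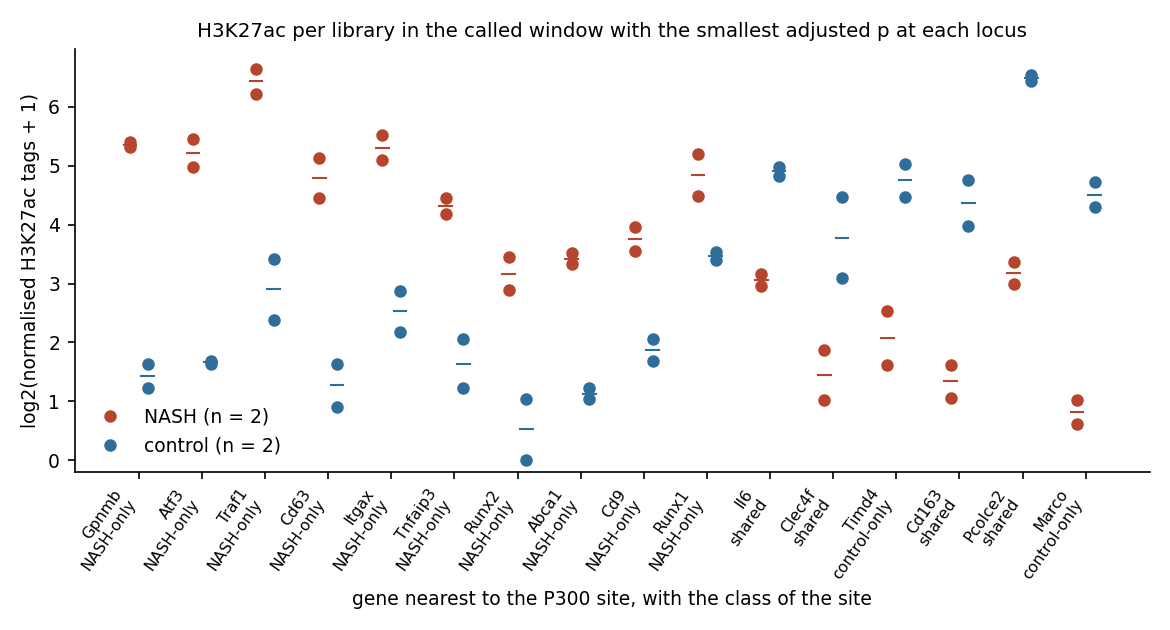
H3K27ac per library, as log2(normalised tags + 1), in the called window with the smallest adjusted p at each locus (horizontal axis, nearest gene and P300 class of the site), with 2 NASH and 2 control libraries as points. At Gpnmb, Atf3 and Traf1 both NASH points lie above both control points, and at Timd4, Marco and Pcolce2 both lie below.

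Among genes of Kupffer cell identity, Timd4, Marco and Cd163 had more control-only than NASH-only sites and some lowered H3K27ac windows. Few of their sites could be read this way, since 2 at Timd4, 3 at Marco and 3 at Cd163 lay in tested windows. Of those, 2, 2 and 1 were in lowered windows. Timd4 had 13 control-only sites and 1 shared site, the most control-only sites of any gene outside predicted ones, and 11 of the 13 overlapped a control LXR site. At chr11:46812082-46812652, inside the gene, the control-only site had a score of 49, and its window had 4.80 and 2.08 tags in NASH and 31.7 and 21.2 in control. That is a relative log2 change of −2.41 ± 0.47 (SE, n = 2 each; limma adjusted p = 0.00251). The Timd4 promoter window, under the shared site printed above, had 0.53 and 1.56 tags in NASH and 12.7 and 15.0 in control, a relative log2 change of −2.64 (limma adjusted p = 0.00491). All 7 tested windows whose nearest gene is Timd4 were lowered.

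Marco had 6 control-only sites, 1 NASH-only site and none shared. All 6 overlapped a control LXR site and 5 a control ATF3 site. The window at chr1:120532619-120533094, centred at −27832 bp from the start, had 0.53 and 1.04 tags in NASH and 25.4 and 18.6 in control (limma adjusted p = 0.000628), and the next site's window 1.07 and 0.52 in NASH and 16.9 and 10.6 in control (limma adjusted p = 0.00428). Both NASH libraries were near 0 there, so no fold is given. Cd163 had 7 control-only, 6 shared and 1 NASH-only site, and its lowered window lay under a shared site at −24957 bp, with 1.07 and 2.08 tags in NASH and 14.8 and 26.1 in control (relative log2 change −2.77 ± 0.52, SE, n = 2 each; limma adjusted p = 0.00236).

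Lowered H3K27ac was not limited to sites that the NASH list lacked. Pcolce2, an enhancer of procollagen processing, had 6 shared, 4 NASH-only and no control-only sites. Its shared site chr9:95681897-95682185 had 6.93 and 9.36 tags in NASH and 85.5 and 92.4 in control, a relative log2 change of −3.05 ± 0.30 (SE, n = 2 each; limma adjusted p = 1.35e-05). Its scores were 33 in the NASH list and 31 in the control list, which are not on a common scale. Among the 22297 single-partner pairs, it stood at percentile 4.9 by NASH score and 49.4 by control score, from the lowest up. Shared windows were split into 5 equal parts by change in that rank. The part that fell most was lowered in 177 of 2997 tested (5.91%), and the part that rose most in 50 of 2881 (1.74%). Of its 6 sites in tested windows 5 were in lowered ones, and the window at −174 bp lost its call without NASH library 2 (adjusted p = 0.119) and that at 2520 bp without NASH library 1 (0.0540) or control library 1 (0.0587). Clec4f, a lectin of Kupffer cells, had 18 shared, 10 NASH-only and 6 control-only sites. Its lowered window under a shared site at 3749 bp had 2.67 and 1.04 tags in NASH and 21.1 and 7.52 in control (limma adjusted p = 0.0231; 0.236 without control library 1 and 0.19 without NASH library 2). Id3, a factor of Kupffer cell identity, had 8 NASH-only, 9 shared and 1 control-only site, and none of its 13 sites in tested windows was called.

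By the rule of smallest adjusted p, the raised NASH-only windows after Traf1 lay nearest to Dennd4c, Gpnmb, Xylt1, Rab21, Myo3b, Myo5a, Gpr157, Itgax and Cd63. Dennd4c, an exchange factor for Rab GTPases, had 27.7 and 40.0 tags in NASH and 0 in both control libraries (limma adjusted p = 6.99e-05). Xylt1, a starter enzyme of proteoglycan sugar chains, had 32.5 and 45.2 tags in NASH and 2.11 and 0 in control (limma adjusted p = 0.000201), and Rab21, a small GTPase of endosomes, 26.7 and 24.4 in NASH and 0 and 0.88 in control (0.000293). Control libraries were at or near 0 in these windows. Myo3b, an unconventional myosin, had 40.5 and 32.8 tags in NASH and 3.17 and 3.54 in control, a relative log2 change of 3.36 ± 0.41 (SE, n = 2 each; limma adjusted p = 0.000301). Its site, chr2:70091836-70092082, lay 52833 bp into the gene with a score of 87. Myo5a, a vesicle motor, had 24.0 and 24.4 tags in NASH and 1.06 and 0 in control at its start (limma adjusted p = 0.000380). The window named for Gpr157, an orphan receptor, had 35.2 and 21.8 in NASH and 2.11 and 1.33 in control (limma adjusted p = 0.000568). Its site lay −39239 bp from the Gpr157 start, and HOMER's annotation gives Mir34a as the window's nearest gene. The Dennd4c and Rab21 sites lay −35382 and −16924 bp from those starts.

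The lowered control-only windows by the same rule lay nearest to Pik3c3, Cdc42bpg, Arl15, Cplx2, Marco, Hapln1, Aebp2, Hpn, Zfp217 and Fam19a5. Some of these starts were far from the site, with Pik3c3 at 234271 bp and Fam19a5 at −469495 bp. Cdc42bpg, a kinase bound by Cdc42, had 17.1 and 19.2 tags in NASH and 80.3 and 91.5 in control, a relative log2 change of −1.92 ± 0.27 (SE, n = 2 each; limma adjusted p = 0.000201). Arl15, a small GTPase, had 6.4 and 7.28 tags in NASH and 48.6 and 51.7 in control, a relative log2 change of −2.45 ± 0.34 (SE, n = 2 each; limma adjusted p = 0.000227). Cplx2, a regulator of vesicle fusion, had 3.20 and 1.56 tags in NASH and 45.4 and 27.9 in control (relative log2 change −3.22; limma adjusted p = 0.000301). Hpn, a membrane serine protease, had 6.93 and 7.28 tags in NASH and 45.4 and 29.2 in control (relative log2 change −1.95; limma adjusted p = 0.00185). The scores of these 10 control-only sites lay between 20 and 52, and in each window both NASH libraries were below both control libraries.

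Some windows went against the class of their site. Besides the 328 lowered NASH-only windows, 2 control-only windows were raised. Rgs1, an inhibitor of G protein signalling, had 49.6 and 42.1 tags in NASH and 4.22 and 14.6 in control under a control-only site of score 76 (relative log2 change 2.63; limma adjusted p = 0.00270; 0.0506 without NASH library 1), and Sgta, a chaperone of tail-anchored proteins, had 14.4 and 17.2 in NASH and 5.28 and 3.54 in control (limma adjusted p = 0.0376; 0.142 and 0.284 without NASH library 1 and 2, and 0.0665 without control library 2). Among the NASH-only lowered windows, Fan1, a DNA repair nuclease, had 2.13 and 2.08 tags in NASH and 27.5 and 31.8 in control (relative log2 change −3.04; limma adjusted p = 0.000418). Mgst2, a microsomal glutathione transferase, had 3.73 and 6.76 tags in NASH and 41.2 and 38.9 in control (relative log2 change −2.50; limma adjusted p = 0.000549). Arl15 held both kinds, since a NASH-only site of score 59 at chr13:113917680-113917907 lay next to its control-only site of score 24, and both windows were lowered (limma adjusted p = 0.000962 at the NASH-only site).

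The 10 highest NASH-only scores ran from 347 near Esp38 to 189 near Gadd45g, and none of their windows was called on the authors' scaling, where 4.01% of NASH-only windows were raised. With TMM the Coro6 window was raised (limma adjusted p = 0.0427). Those near Coro6 (score 247) and Trim25 (237) had 18.7 and 27.6, and 9.60 and 8.84, tags in NASH, against 12.7 and 8.40, and 5.28 and 3.98, in control. A NASH-only site 19521 bp from the Clec4f start had a score of 207. The highest control-only scores were 443 near Esp38, 136 near Rasgef1b, 134 near Clec4f, 126 near Setd5 and 113 near Ucp2. The Esp38 site lay in no H3K27ac window, the Clec4f window was not tested, and those near Rasgef1b, Setd5 and Ucp2 were not called. Among shared sites, the complement gene C1qc had scores of 337 in NASH and 131 in control and the integrin gene Itga9 329 in NASH and 105 in control. The site whose nearest start is that of Lrrc4c, 1199493 bp away (1688 in NASH and 1512 in control), held 34606 and 40845 H3K27ac tags in NASH and 23388 and 21228 in control. The median window of all held 4.27 and 4.16 tags in NASH and 6.34 and 4.86 in control. Whether so high a signal reflects histone marks or P300 binding was not tested. The NASH-only and control-only sites named for Esp38 lay −104259 and −105416 bp from its start. HOMER's annotation gives Rn45s as the nearest gene of the NASH-only site's window.

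Counted by nearest gene, NASH-only sites were spread over 9740 of 20385 genes and control-only sites over 1790. Zeb2, a repressor needed for macrophage identity, had the most NASH-only sites with 55, beside 47 shared and 11 control-only sites. It was followed by Abca1 (53), Lpp (43), Dnmt3a (42), Rasgef1b (42), Psap (41), Frmd4a (38), Mertk (36), Bhlhe40 (34) and Trib1 (34). Psap encodes the saposins of lysosomal lipid breakdown and Mertk a receptor for the uptake of dead cells. Many control-only sites, after Timd4 (13), were at Maf (11), Zeb2 (11), Mroh2a (10), Ctsc (9), Stk17b (9), Rasgef1b (8), Csf1r (8) and Sfi1 (8). Maf, a factor of resident macrophages, also had 16 NASH-only and 23 shared sites, and Csf1r, the receptor for the macrophage growth factor CSF1, 15 and 16. Zeb2, Rasgef1b, Maf and Csf1r thus held many sites of every class.

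Gene lists differed in the make-up of their sites. The 30 genes of Kupffer cell identity had 401 NASH sites, 42.4% of them NASH-only, and 314 control sites, 27.4% of them control-only, beside 56.8% and 10.0% for all genes. Of their 226 tested windows, 1 was raised and 40 were lowered, beside 595 raised and 1471 lowered of 32149 for all genes with a start. The list of lipid-associated and scar-associated macrophages (26 genes, 25 with a site) had 340 NASH sites, 68.5% NASH-only, and 110 control sites, 8.18% control-only. Of its 159 tested windows, 23 were raised and 1 was lowered, and 14 of its 56 windows with NASH-only sites were raised. Several members of both lists are those named above, and the lists were written with earlier results known.

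The signalling lists had NASH-only shares of 48.7% to 60%, beside 56.8% for all genes. NASH-only shares of NASH sites were 60% for LXR targets (290 NASH sites), 52.2% for AP-1, ATF and related factors (439), 52.7% for inflammatory NF-κB genes (245), 54.4% for TGF-β, BMP and Notch signalling (327) and 48.7% for the interferon response (115). Raised and lowered windows numbered 2 and 5 of 149 for LXR targets, 12 and 8 of 274 for AP-1 and ATF factors, 9 and 6 of 153 for NF-κB genes, 8 and 5 of 182 for TGF-β and related genes, and 0 and 6 of 79 for interferon genes, beside 595 and 1471 of 32149 for all genes. Lysosome genes had 55.4% NASH-only sites with 3 raised and 4 lowered of 153 windows, antigen presentation 53.6% with 5 and 2 of 80, and cholesterol and fatty acid synthesis 60.8% with 0 and 0 of 30. The coactivator list, which holds Ep300 and Crebbp themselves, had 60.8% NASH-only sites with 0 and 0 of 93 windows called, and the 12 housekeeping genes 46.5% with 0 and 0 of 49. Control-only sites made up 15.0% of the 60 control sites of the coactivator list and 19.1% of the 47 control sites of the housekeeping list. Ep300 had 3 NASH-only, 6 shared and 1 control-only site, and its close relative Crebbp 5 NASH-only sites alone.

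P300 sites also lay nearest to markers of other cells. Over all genes, 12500 of 20385 had a site, with 52531 NASH and 25110 control sites. All 30 Kupffer cell genes had a site, while hepatocyte markers had 21 NASH and 11 control sites at 7 of 8 genes, endothelial markers 20 and 12 at 6 of 8, and monocyte markers 50 and 21 at 6 of 7. Neutrophil markers had 5 and 1, B cell markers 5 and 3, T and NK cell markers 3 and 2, dendritic cell markers 18 and 6, cholangiocyte markers 5 and 0 and stellate cell markers 1 and 1. Of 23 tested windows of monocyte markers none was raised and 6 were lowered, and the part of other cells in the P300 lists was not tested.

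**Figure D5:**
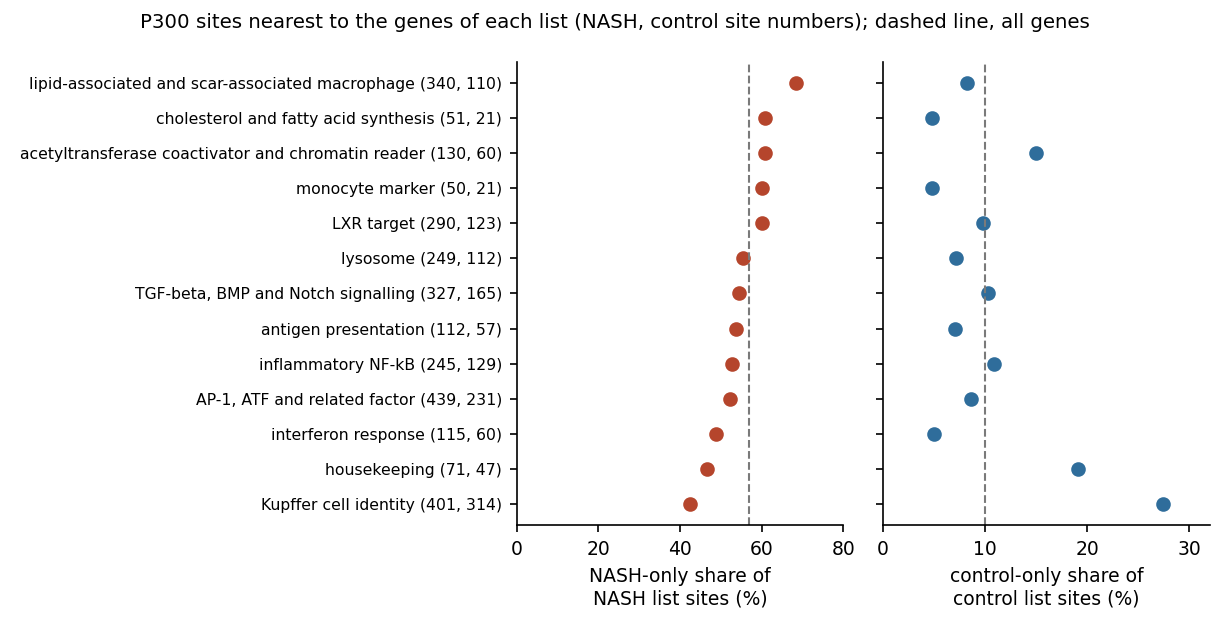
Share of the NASH sites nearest to each gene list that are NASH-only (left, percent) and share of the control sites that are control-only (right, percent), with the numbers of NASH and control sites beside each list and all genes as a dashed line. The list of lipid-associated and scar-associated macrophages is at 68.5% on the left, and the Kupffer cell identity list is at 27.4% on the right.

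ETS words were more frequent in promoters with P300 sites than in all promoters, and AP-1 words were less frequent. Of 21263 RefSeq promoters of 300 bases outside chromosome 18, 2758 held NASH-only sites, 251 control-only sites, 5340 shared sites and 12854 no P300 site. The ETS core (CCGGAAGT) was in 9.93% of NASH-only, 9.96% of control-only and 11.6% of shared promoters, against 5.15% of all. AP-1 was in 4.93%, 2.39% and 4.46%, against 6.99% of all, and the C/EBP word in 8.59%, 9.96% and 7.92%, against 10.2%. The nuclear receptor half-site was in 10.8%, 8.76% and 11.4%, against 14.7%, and 2 exact half-sites spaced by 4 bases were in none. Median GC content was 60.7%, 63.0% and 62.3%, against 56.3% of all promoters, and its part in the word counts was not tested.

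Among NASH-only promoters, the AP-1 word and the nuclear receptor half-site had larger shares in the few with raised H3K27ac, counted without a test. Of the 23 NASH-only promoters with a raised window, which belong to 21 genes, 6 held the AP-1 word (26.1%), against 0 of 30 with a lowered window and 78 of 1702 not called (4.58%). The half-site was in 5 of the 23 (21.7%), against 4 of 30 with a lowered window (13.3%) and 172 of 1702 not called (10.1%). The ETS core was in 0 of the 23, against 2 of 30 with a lowered window (6.67%) and 193 of 1702 not called (11.3%). Among the fixed loci, the NASH-only promoters of Itgax and Trem2 held the AP-1 word, though the Trem2 window was not called. Those of Cd63, Traf1, Cd9 and Tnfaip3 did not hold it, and the Cd63 and Tnfaip3 windows were raised. Raised windows made up 1.31% of NASH-only promoters tested, 1.13% of control-only (2 of 177), 0.228% of shared, 1.07% of those with no P300 site and 0.604% of all. Lowered windows made up 1.71%, 2.26%, 2.03%, 4.28% and 2.20%, in the same order. These counts rest on few promoters and carry no test.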

How the data were processed

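Groups came from the sample labels. The submitters' processing notes name HOMER, Bowtie2 and DESeq2, and GRCm38 and mm10 as builds, while their versions and their roles are not given in the sources used here. Each P300 list was made by the authors from 2 libraries at an IDR threshold of 0.05, per the file headers, and was deposited with an enrichment score and an IDR score per site. The H3K27ac values are the authors' deposited signal, HOMER tags in accessible windows (124 to 550 bp, median 204) scaled to 10000000 tags per library, per the file headers. Rescaled by the library totals in the headers, 100% of the values came out as whole tags within 0.02. Input samples were not used here.

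From these files, classes were made with bedtools 2.31.1 and coordinates were used as deposited. The nearest gene is that of the nearest of 26036 protein-coding starts, rebuilt from HOMER's distances in the window table and from RefSeq promoters, and it was HOMER's own gene for 97.8% of windows. H3K27ac was tested with limma 3.58.1 (trend, filterByExpr of edgeR 4.0.16, Benjamini-Hochberg over all windows tested), and the code was tested on simulated data first. P-values measure the spread between libraries, which may be technical. Where a window has no tag, counting error alone leaves room for 3 tags, or 1.60 and 1.56 normalised tags in the NASH libraries and 3.17 and 1.33 in the control libraries. No fold is given for a window whose lower diet held 3 tags or fewer in all. No genome was used, so motifs were searched in RefSeq promoters in place of site centres. The P300 sites to name were the 10 highest scores per class, the 10 genes with most sites of a class, the 10 windows with the smallest adjusted p whose call follows the class and 5 against it, and a fixed list of loci. Members, loci and gene lists were chosen with earlier results of these data known. Some items that the rule names are not reported here.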

Additional observations from a re-analysis of the deposited data

How the results depend on the processing

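Among 56 called windows at named P300 sites and loci, none changed direction under any alternative. Calls were lost as follows: 20 without 1 of the libraries, 1 with TMM scaling, 1 with edgeR on recovered tags, 1 with a pseudocount of 0.5, 0 with a pseudocount of 5, 0 with the replicate block and 56 with no filter. Windows named in the text without a P300 site, such as that at the Gpnmb start, were not among them. P300 classes moved most with the length of the lists (7046 NASH-only and 7038 control-only sites at equal length); control-only sites numbered 1458 with neighbours within 500 bp counted as shared and 1190 with IDR scores of at least 830. Within 500 bp, and then with IDR scores of at least 830, LXR sites of the NASH list covered 71.7% and 75.5% of NASH-only, 57.4% and 42.2% of control-only and 93.1% and 90% of shared sites. LXR sites of the control list covered 57.0% and 57.8%, 64.4% and 52.4%, and 92.4% and 88.8%. ATF3 sites of the NASH list covered 53.2% and 54.8%, 34.2% and 22%, and 72.7% and 68.1%, and those of the control list 18.8% and 17.6%, 26.1% and 18.6%, and 52.1% and 48.5%.

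Raised H3K27ac windows with NASH-only sites numbered 648 with edgeR, 189 with lists of equal length and 105 to 490 with a library left out. Those with control-only sites numbered 14 with TMM, 4 with the replicate block, 13 with edgeR, 1 within 500 bp, 12 at equal length and 0 to 7 with a library left out. Those with shared sites numbered 200 with TMM, 139 with the block, 242 with edgeR, 153 within 500 bp and 4 to 157 with a library left out, and those without a site 406, 452 with edgeR, 93 within 500 bp, 460 at equal length and 84 to 338. Lowered windows with NASH-only sites numbered 144 with TMM, 631 with the block, 205 with edgeR, 73 at equal length and 65 to 478 with a library left out. Those with control-only sites numbered 237 at equal length and 42 to 104. Those with shared sites numbered 230 with TMM, 916 with the block, 295 with edgeR, 847 within 500 bp and 103 to 862, and those without a site 467, 1172, 335 within 500 bp and 256 to 1055. With no filter, limma called 0 windows in every class, while 2335 raised and 5271 lowered passed an unadjusted p of 0.05 with a log2 change of 1 or more in size, and edgeR called 1357 and 1130 with the filter. The cause of these moves was not tested. Same-numbered libraries of the diets had a correlation of deviations of 0.04, so the numbers are not shown to pair them, and the block gave 1053 raised and 2837 lowered windows in all. The lists of equal length for H3K27ac were chosen after seeing the data. The depth of the P300 libraries was not given in their lists, and the smaller control H3K27ac library limits what low windows can show.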

Other observations

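The X chromosome held 608 NASH-only and 26 control-only sites, 2.04% of the NASH-only and 1.02% of the control-only class, which is 23.4 NASH-only sites for each control-only site. The other numbered chromosomes had between 9.20 and 16.0. The labels used here do not give the sex of the mice. The unplaced scaffold JH584304 went the other way, with 14 NASH-only, 27 control-only and 54 shared sites of the NASH list.

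A group of sites near Esp38 on chromosome 17 held all classes, with a score of 347 for the NASH-only site, 443 for the control-only site and 481 in NASH and 474 in control for the shared site. The shared site lies at chr17:39843142-39843605, the control-only site at chr17:39845001-39845208 and the NASH-only site at chr17:39846079-39846443. They lie −107147, −105416 and −104259 bp from the Esp38 start. HOMER's annotation labels the windows of the shared and NASH-only sites non-coding. It gives Rn45s as their nearest gene, at 437 and 3269 bp. The control-only site of Nr1h3, with a score of 71 at 261 bp from the start, likewise lies beside a shared promoter site with scores of 182 in NASH and 63 in control.

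Mroh2a had 10 control-only, 3 shared and no NASH-only sites, and none of its 2 tested windows was called. Of the control list, 258 genes had sites in that list alone, and 3547 genes had sites in the NASH list alone.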
